A study of Homo sapiens with 12 samples.

Results

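Glycolysis and hypoxia genes were followed through PSPC1 and PU.1 knockdown in acute myeloid leukemia cells. The group holds 37 genes of the 60648 listed in both count tables. They were chosen by symbol for glucose uptake, the enzymes from hexokinase to lactate dehydrogenase, lactate export, and the hypoxia-inducible factor (HIF) system, by a rule that uses no measured value, although earlier results of these data were known. All 37 were listed, and 36 passed the filter on low counts and were tested in each comparison. The exception was ADM, which encodes the vasodilator adrenomedullin and stayed between 0 and 0.605 CPM in all 12 libraries. CPM is a gene's count relative to the scaled total of its library.

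The libraries formed 6 groups of 2. MOLM13, a human acute myeloid leukemia line grown in RPMI with 10% fetal bovine serum, carried a control hairpin or one that lowers PSPC1, which binds RNA in the paraspeckles of the nucleus. OCIAML5, another such line, was grown in alpha-MEM with 20% serum and 10 ng/mL of the growth factor GM-CSF, and carried the same kinds of hairpin. In a separate experiment OCIAML5 carried a control hairpin or one that lowers SPI1, whose product is PU.1, a transcription factor that drives myeloid development. All groups, controls included, had been infected with lentivirus and selected with puromycin or sorted for GFP, and the labels do not say which applied to which group. Nor do they say if the 2 libraries in each group are separate cultures or hairpins, and p-values here measure only the spread between such libraries, which may be technical. Line and medium cannot be told apart, nor can PU.1 or PSPC1 control cells and the experiment they belong to. No oxygen level is given.

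Glycolysis turns glucose into pyruvate and yields ATP without oxygen. Lactate dehydrogenase then regenerates the NAD+ that the pathway needs, and monocarboxylate transporters carry the lactate out of the cell. When oxygen is low, the prolyl hydroxylases of the EGLN family stop marking the HIF alpha subunits for destruction, and HIF raises most glycolytic genes together with genes of angiogenesis, mitophagy and its own feedback. HIF1A is controlled mainly at the protein level, and leukemia cells in marrow and in culture often run glycolysis at a high rate even with oxygen.

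The 8 libraries with or without PSPC1 knockdown held 15.4 to 22.8 M counts each, and the 4 of the PU.1 experiment 26.3 to 39.7 M. PSPC1 fell from 133 and 137 to 27.7 and 28.6 CPM in MOLM13 and from 100.2 and 100.1 to 18.8 and 19.2 CPM in OCIAML5. SPI1 fell from 220 and 197 to 46.4 and 45.1 CPM after PU.1 knockdown. PSPC1 itself fell there too, from 102.3 and 109.2 to 58.4 and 56.8 CPM (edgeR, log2 fold change -0.89, adjusted p = 2.1e-23), so PSPC1 was lower after every knockdown. In MOLM13 the level of SPI1 was 259.5 and 248.5 CPM in controls and 333 and 362 CPM with PSPC1 lowered (0.44, adjusted p = 7.9e-11), and in OCIAML5 it was at 203 and 182 before and 201 and 217 CPM after (0.13, adjusted p = 0.023). The summed level of 8 myeloid genes lay between 1062 and 1919 CPM in every library. Of 6 T-cell genes, CD8B was at 0 in all libraries, while the sum was 48.0 and 50.4 CPM in the MOLM13 controls and 11.1 and 11.5 CPM after knockdown, nearly all of it from TRAC. Of 5 B-cell genes, MS4A1 was at 0 in all libraries, and the sum, mostly PAX5, was 23.1 and 24.9 CPM in OCIAML5 before and 12.7 and 13.7 CPM after PSPC1 knockdown. In the PU.1 experiment the T-cell sum was 0.550 and 0.615 CPM before and 7.16 and 8.11 CPM after knockdown, and the B-cell sum 5.60 and 5.84 before and 1.171 and 1.203 CPM after. Mitochondrial messages made up 9.32% and 9.86% of counts in the MOLM13 controls and 12.4% in both knockdown libraries. In OCIAML5 the share was 12.03% and 10.8% before and 14.3% after PSPC1 knockdown, and 9.95% and 10.0% before and 10.6% and 9.84% after PU.1 knockdown. The part of these shifts in the results was not tested.

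Promoter letters were read as a feature that the rule did not use. HIF is known to bind the core letters ACGTG and GCGTG, and both were searched for on both strands in the 250 bases upstream of the RefSeq start (GRCh38.p14). Of 37 members, 31 had such a window, and 19 of the 31 held at least 1 match, against 43.1% of 27305 promoters in the same table. ACGTG was in 12 of the 31 windows and in 18.7% of all, and GCGTG in 11 and in 31.9%. The longer letters CACGTG, which contain ACGTG and are also those of the MYC E-box, were in 5 windows and in 6.49% of all. A match describes letters, not binding, and no match says only that these letters are not in this window. The first 5 windows shown belong to members that fell in all 3 knockdowns, taken in order of the size of their smallest fall, and LDHA, the enzyme that makes lactate, was added after its values were seen. They lie at chr17:28576896-28577145 (minus strand), chr2:74833877-74834126 (plus), chrX:78103998-78104247 (plus), chr1:8878687-8878936 (minus), chr10:3067720-3067969 (plus) and chr11:18394313-18394562 (plus), and the GENCODE span of each of the 6 genes begins upstream of the RefSeq start. Letters run 5′ to 3′ towards the gene, and capitals mark matches, which appear as CACGT or CACGC where they lie on the other strand.
ALDOC: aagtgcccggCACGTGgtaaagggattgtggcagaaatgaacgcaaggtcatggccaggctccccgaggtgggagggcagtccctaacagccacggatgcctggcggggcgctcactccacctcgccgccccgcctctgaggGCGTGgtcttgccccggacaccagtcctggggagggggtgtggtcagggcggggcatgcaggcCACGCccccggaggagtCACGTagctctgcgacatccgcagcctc
HK2: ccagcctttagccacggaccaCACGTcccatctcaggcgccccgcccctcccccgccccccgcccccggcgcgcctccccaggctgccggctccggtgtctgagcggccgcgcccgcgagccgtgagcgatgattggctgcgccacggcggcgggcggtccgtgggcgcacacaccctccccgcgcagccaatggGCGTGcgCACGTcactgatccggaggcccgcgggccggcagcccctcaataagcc
PGK1: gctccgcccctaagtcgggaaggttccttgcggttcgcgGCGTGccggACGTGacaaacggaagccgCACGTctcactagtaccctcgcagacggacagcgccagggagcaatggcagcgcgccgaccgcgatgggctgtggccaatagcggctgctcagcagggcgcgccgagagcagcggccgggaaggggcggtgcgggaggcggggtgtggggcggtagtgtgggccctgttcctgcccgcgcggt
ENO1: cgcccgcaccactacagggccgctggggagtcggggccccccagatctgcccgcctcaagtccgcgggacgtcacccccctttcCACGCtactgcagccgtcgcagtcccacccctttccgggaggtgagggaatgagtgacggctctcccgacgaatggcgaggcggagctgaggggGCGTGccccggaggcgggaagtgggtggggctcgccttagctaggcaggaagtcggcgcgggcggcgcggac
PFKP: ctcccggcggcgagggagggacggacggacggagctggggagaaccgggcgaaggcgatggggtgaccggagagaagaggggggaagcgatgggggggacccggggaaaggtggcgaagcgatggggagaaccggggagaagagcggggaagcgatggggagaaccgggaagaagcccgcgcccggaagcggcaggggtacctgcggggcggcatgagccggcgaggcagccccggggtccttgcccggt
LDHA: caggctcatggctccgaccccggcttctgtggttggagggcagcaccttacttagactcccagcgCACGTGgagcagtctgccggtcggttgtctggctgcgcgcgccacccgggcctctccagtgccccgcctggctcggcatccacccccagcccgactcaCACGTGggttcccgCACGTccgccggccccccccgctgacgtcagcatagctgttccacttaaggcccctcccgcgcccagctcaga

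Matches were counted on each strand, so a CACGTG, which reads the same on both, counts as 2. ALDOC and LDHA each held 5 matches, with 1 CACGTG in ALDOC and 2 in LDHA. HK2 and PGK1 held 3 each, and ENO1 2. PFKP held none. All 6 genes fell in all 3 knockdowns, PFKP included. PGAM1 and SLC2A1, which fell in all 3 as well, also held none. BNIP3, with 6 matches that include 1 CACGTG, did not pass the test in MOLM13.

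More members fell than rose in each knockdown. After PSPC1 knockdown in MOLM13, 20 of 36 were lower and 6 higher at an adjusted p of 0.05 in edgeR's quasi-likelihood test, where 29.5% of all 16457 genes tested were lower and 27.6% higher, 57% in all. After PSPC1 knockdown in OCIAML5, 18 were lower and 6 higher, against 28.4% and 27.5% of all genes, 56% being called in either direction. The 6 became 3 without OCIAML5 knockdown replicate 1. After PU.1 knockdown in OCIAML5, 20 were lower and 8 higher, against 30.9% and 29.6% of 16861 genes, 60.4% in all. The members' median log2 fold change was -0.37 in MOLM13, -0.31 in OCIAML5 and -0.21 after PU.1 knockdown, and that of all genes 0.01, 0.02 and 0.02. The OCIAML5 median was -0.48 without PSPC1 knockdown replicate 2. The PU.1 median was -0.32 without control replicate 1 of that experiment, and -0.06 when scaled by library size alone, which moved the median of all genes by 0.15 and the share of higher genes among those called from 48.9% to 62.2%. In bulk RNA, fewer cells of a kind and less RNA per cell cannot be told apart.

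The falls overlapped. Of the 20 members lower in MOLM13, 16 were also lower after PSPC1 knockdown in OCIAML5, which is 80% of the one list and 88.9% of the other. Over the 15396 genes tested in all 3 knockdowns, the lower genes of the 2 lines shared 69.8% of the MOLM13 list and 71% of the OCIAML5 list. PSPC1 and PU.1 knockdown in OCIAML5 shared 13 lower members, 72.2% of 18 and 65% of 20, and sent 5 members in opposite directions. For all genes the same shares of lower genes were 61.8% and 55.6%, while the share of all genes in opposite directions was not computed. Across the 36 members the log2 fold changes of PSPC1 knockdown in the 2 lines had a Pearson correlation of 0.66, with 30 of the same sign, and those of PSPC1 and PU.1 knockdown in OCIAML5 one of 0.39, with 26 of the same sign. Over all 15396 genes the correlations were 0.56 and 0.40, with 73.5% and 65.4% of the same sign. Genes are not independent, so these are descriptions, and none of the overlap is called particular to the members. In all 3 knockdowns 11 members fell (30.6% of 36, against 14.4% of all genes), namely SLC2A1, SLC16A1, HK2, PFKP, PFKFB3, ALDOC, PGK1, PGAM1, ENO1, LDHA and VEGFA, while HIF1A and BNIP3L rose. The share of all genes that rose in all 3 was not computed. For SLC2A1, SLC16A1, PFKFB3, ALDOC, HIF1A and BNIP3L at least 1 of the 3 calls depended on the scaling, the control set or a library, as given with each.

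**Figure D1:**
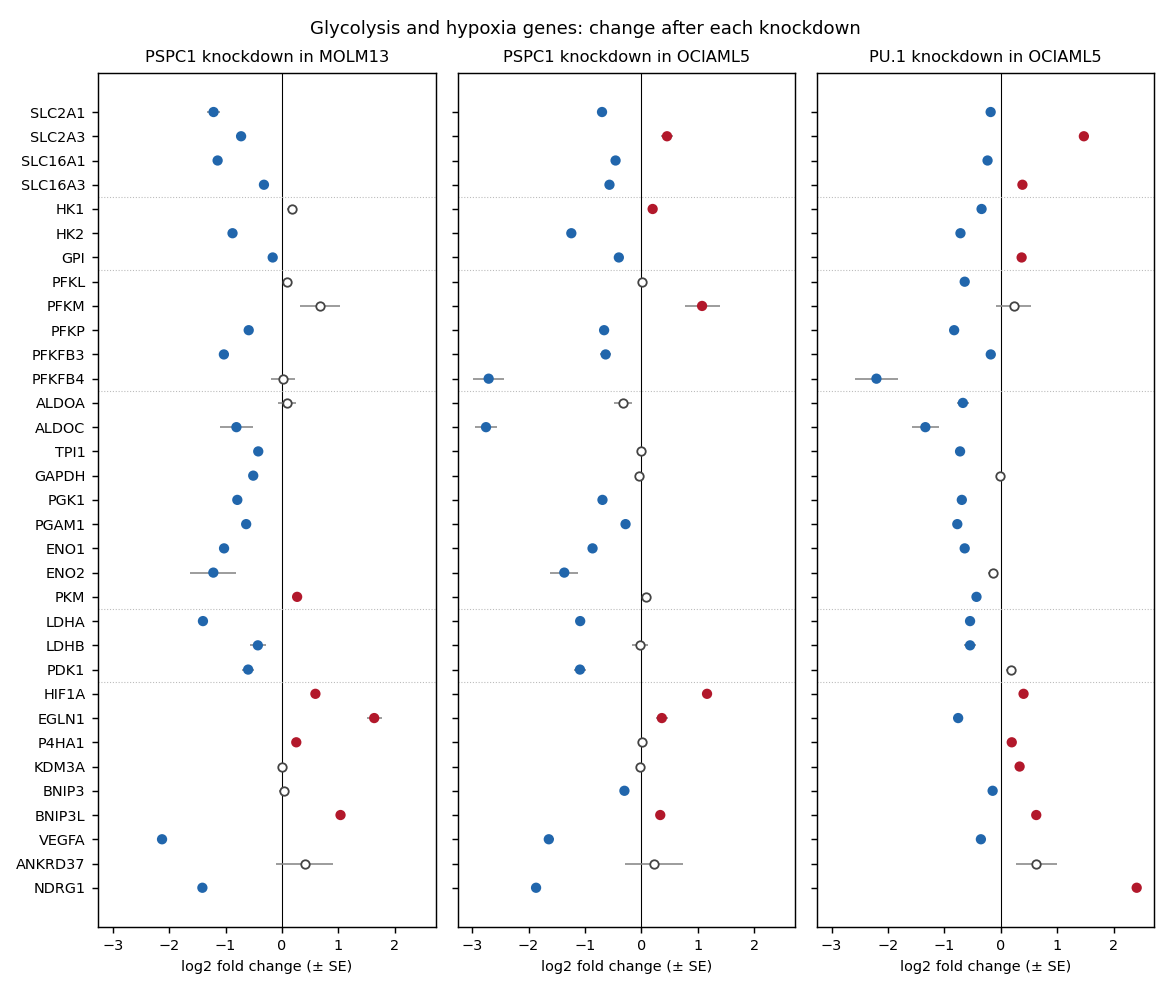
Log2 fold change with its standard error for 33 members in each knockdown, 2 libraries a group, ordered from transport at the top to HIF genes at the bottom. Filled blue points are lower and filled red points higher at an adjusted p of 0.05, and open points did not pass; ADM, EGLN3, PFKFB2 and HK3, all near 0 in at least 1 line, are left out. LDHA, ENO1 and PGK1 lie left of 0 in all 3 panels, whereas NDRG1 lies at -1.41 and -1.87 after PSPC1 knockdown and at 2.41 after PU.1 knockdown.

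The 18 enzymes from hexokinase to lactate dehydrogenase give the size of the shift in total. They took 0.753% and 0.744% of all counts in the MOLM13 controls and 0.520% and 0.516% after PSPC1 knockdown. In OCIAML5 they took 0.826% and 0.874% before and 0.686% and 0.684% after PSPC1 knockdown. In the PU.1 experiment the share went from 0.937% and 0.922% to 0.781% and 0.801%. Within each comparison both knockdown libraries lay below both controls.

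The 4 transporters of glucose and lactate had medians of -0.93 in MOLM13, -0.51 in OCIAML5 and 0.10 after PU.1 knockdown. SLC2A1 encodes GLUT1, the basal glucose transporter (GRCh38 chromosome 1, 42925375 to 42959176). The MOLM13 controls held 34.6 and 29.7 CPM and the PSPC1 knockdown libraries 13.5 and 14.5 CPM (log2 fold change -1.21, standard error 0.11, adjusted p = 4.4e-14; values after ± are standard errors throughout). The OCIAML5 controls held 58.4 and 62.7 CPM and the PSPC1 knockdown libraries 36.9 and 36.6 CPM (-0.70 ± 0.088, adjusted p = 1.8e-09). PU.1 knockdown took it from 79.6 and 73.4 to 68.5 and 68.0 CPM (-0.18, adjusted p = 0.0048), which was not called with library size alone (-0.03, adjusted p = 0.69). Against the controls of the PSPC1 experiment the PU.1 value was 0.15 (adjusted p = 0.046). The groups did not overlap in any of the 3 comparisons.

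SLC2A3, the gene of the high-affinity transporter GLUT3 (chromosome 12, 7919230 to 7936275), moved in opposite directions in the 2 lines after PSPC1 knockdown. In MOLM13 it fell from 63.0 and 56.4 to 38.0 and 35.0 CPM (log2 fold change -0.72 ± 0.091, adjusted p = 1.6e-09). In OCIAML5 it rose from 21.7 and 24.4 to 29.1 and 33.2 CPM after PSPC1 knockdown (0.45 ± 0.10, adjusted p = 0.00011). PU.1 knockdown raised it from 14.7 and 13.9 to 43.3 and 37.2 CPM (1.47 ± 0.085, adjusted p = 1.2e-24). With the control sets exchanged the rise was 1.12 for PSPC1 (adjusted p = 7.7e-14) and 0.78 for PU.1 knockdown (adjusted p = 1.9e-09). SLC2A3 was the only member lower after PSPC1 knockdown in one line and higher in the other.

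The lactate exporters also parted. SLC16A1, the gene of the transporter MCT1, fell from 180 and 167 to 72.9 and 85.8 CPM in MOLM13 (-1.14 ± 0.06, adjusted p = 2.7e-22) and from 149 and 157 to 108 and 112 CPM after PSPC1 knockdown in OCIAML5 (-0.46 ± 0.058, adjusted p = 1.7e-09). PU.1 knockdown took it from 174 and 187 to 157 and 153 CPM (-0.24, adjusted p = 8.1e-06), a fall not called with library size alone (-0.08, adjusted p = 0.1) or against the controls of the PSPC1 experiment (0.00, adjusted p = 0.99). SLC16A3, the gene of MCT4, which exports lactate from highly glycolytic cells, fell from 171 and 159 to 140 and 127 CPM in MOLM13 (-0.32) and from 69.0 and 80.1 to 46.1 and 53.4 CPM after PSPC1 knockdown in OCIAML5 (-0.57). It rose after PU.1 knockdown, from 106 and 94.95 to 127 and 137 CPM (0.38 ± 0.051, adjusted p = 1.1e-09). All 4 transporters thus fell with PSPC1 in MOLM13 and 3 of 4 in OCIAML5, where 29.5% and 28.4% of all genes fell. PU.1 knockdown lowered SLC2A1 and SLC16A1 and raised SLC2A3 and SLC16A3.

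Hexokinases trap glucose in the cell by phosphorylation. Of the 3 hexokinases and GPI, 2 were lower and 1 higher in each knockdown. Of all genes, 28.4% to 30.9% were lower and 27.5% to 29.6% higher. The medians of this step were 0.00, -0.10 and 0.01 in the order MOLM13, OCIAML5 and PU.1. HK2, the inducible and mitochondria-bound isozyme (chromosome 2, 74833981 to 74893359), fell in MOLM13 from 129 and 132 to 68.3 and 74.3 CPM after PSPC1 knockdown (-0.88 ± 0.058, adjusted p = 1.9e-18). In OCIAML5 it fell from 243 and 262 to 102 and 108 CPM (-1.24 ± 0.053, adjusted p = 9.5e-26), and after PU.1 knockdown from 214 and 216 to 133 and 132 CPM (-0.71 ± 0.045, adjusted p = 4.7e-23). Each knockdown left HK2 in both libraries well below both of its controls. HK1, the housekeeping isozyme, stood at 29.02 and 32.0 CPM before and 35.8 and 33.6 CPM after PSPC1 knockdown in MOLM13 (0.17, adjusted p = 0.073), and was called higher with library size alone (0.22, adjusted p = 0.021). In OCIAML5 it rose from 82.0 and 80.6 to 93.6 and 90.2 CPM (0.20, adjusted p = 0.012), a call lost without control replicate 2 (0.18, adjusted p = 0.075) or PSPC1 knockdown replicate 1 (0.17, adjusted p = 0.13). PU.1 knockdown lowered it from 118 and 115 to 93.0 CPM in both libraries (-0.34, adjusted p = 1.4e-08). With the 2 control sets exchanged the HK1 values turned over, to -0.33 for PSPC1 (adjusted p = 6.3e-07) and 0.17 for PU.1 knockdown (adjusted p = 0.0076).

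HK3, a hexokinase of myeloid cells, stayed below 2 CPM in every library. It went from 0.606 in both MOLM13 controls to 1.89 and 1.87 CPM (1.61 ± 0.63, adjusted p = 0.027), which was not called with DESeq2 (adjusted p = 0.065) or without any 1 of the 4 MOLM13 libraries (adjusted p from 0.10 to 0.13). GPI, the isomerase that makes fructose 6-phosphate, fell from 403 and 396 to 361 and 358 CPM in MOLM13 (-0.16, adjusted p = 0.00065) and from 401 and 399 to 300.1 and 297 CPM after PSPC1 knockdown in OCIAML5 (-0.40, adjusted p = 8e-12). It rose after PU.1 knockdown from 440.3 and 422 to 560.4 and 565 CPM (0.37, adjusted p = 3e-13).

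Phosphofructokinase commits glucose to glycolysis. Of its 3 isozymes and 3 PFKFB enzymes, 2 were lower in MOLM13, 3 lower and 1 higher in OCIAML5 after PSPC1 knockdown, and 4 lower after PU.1 knockdown. In these comparisons 28.4% to 30.9% of all genes were lower and 27.5% to 29.6% higher. The medians of this step were 0.06, -0.32 and -0.41. The platelet isozyme PFKP (chromosome 10, 3066333 to 3137712) fell from 154 and 151 to 101 and 104 CPM in MOLM13 (-0.59 ± 0.051, adjusted p = 2.3e-14). It fell from 297 and 298 to 189 and 182 CPM after PSPC1 knockdown in OCIAML5 (-0.66 ± 0.046, adjusted p = 1.9e-17) and from 324 and 311 to 179 and 182 CPM after PU.1 knockdown (-0.83 ± 0.042, adjusted p = 1.3e-27). The liver isozyme PFKL did not pass after PSPC1 knockdown, with 238 and 234 against 249.9 and 259 CPM in MOLM13 (0.10, adjusted p = 0.067). In OCIAML5 it was at 219.6 and 227 against 219 and 222 CPM (0.00, adjusted p = 0.97). PFKL was called higher in MOLM13 under several alternatives. These include DESeq2 (0.12, adjusted p = 0.02), library size alone (0.14, adjusted p = 0.0062) and that line fitted alone (0.10, adjusted p = 0.019). PU.1 knockdown lowered it from 222 and 198 to 135 and 137 CPM (-0.64 ± 0.047, adjusted p = 1.1e-19). The muscle isozyme PFKM was scarce, between 1.35 and 5.62 CPM. It was called higher after PSPC1 knockdown in OCIAML5, at 1.98 and 2.95 against 5.62 and 4.49 CPM (1.07 ± 0.31, adjusted p = 0.0029), and not without control replicate 1 (0.80, adjusted p = 0.06) or knockdown replicate 1 (0.89, adjusted p = 0.061). In MOLM13 PFKM was at 0.67 (adjusted p = 0.1), and at 0.94 without knockdown replicate 2 (adjusted p = 0.048).

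The PFKFB enzymes make and degrade fructose 2,6-bisphosphate, the strongest activator of phosphofructokinase. PFKFB3, whose kinase activity predominates, fell from 61.2 and 49.4 to 26.1 and 28.7 CPM in MOLM13 (-1.03 ± 0.095, adjusted p = 1.8e-13) and from 47.9 and 51.0 to 32.5 and 30.1 CPM after PSPC1 knockdown in OCIAML5 (-0.63 ± 0.092, adjusted p = 5.7e-08). PU.1 knockdown took it from 47.5 and 47.0 to 39.99 and 44.2 CPM (-0.18, adjusted p = 0.018), and this small fall was not called without PU.1 knockdown replicate 1 (-0.12, adjusted p = 0.26) or with library size alone (-0.03, adjusted p = 0.76). PFKFB4 (chromosome 3, 48517684 to 48562015) held 7.17 and 8.42 CPM in MOLM13 before and 7.20 and 8.70 CPM after PSPC1 knockdown (0.02, adjusted p = 0.96). In OCIAML5 it fell from 6.65 and 7.05 to 0.916 and 1.17 CPM (-2.71 ± 0.28, adjusted p = 5.6e-12). In the PU.1 experiment it fell from 2.02 and 2.36 to 0.496 and 0.463 CPM (-2.20 ± 0.38, adjusted p = 5.9e-07). The values overlapped in MOLM13 and were far apart in OCIAML5. The OCIAML5 control sets differed, however, and with them exchanged the change was -1.08 for PSPC1 (adjusted p = 0.004) and -3.85 for PU.1 knockdown (adjusted p = 6.3e-14). PFKFB2 was at most 0.362 CPM in MOLM13 and passed in none of the 3 knockdowns. In OCIAML5 it went from 0.825 and 1.35 to 2.75 and 2.16 CPM after PSPC1 knockdown (1.21, adjusted p = 0.052). PFKFB2 was called higher there under several alternatives. These include library size alone (1.29, adjusted p = 0.036), that line fitted alone (1.21, adjusted p = 0.015) and the PU.1 experiment's controls (1.99, adjusted p = 1e-04).

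From aldolase to pyruvate kinase, 7 of 9 members were lower in MOLM13, 5 after PSPC1 knockdown in OCIAML5 and 7 after PU.1 knockdown. Of all genes, 29.5%, 28.4% and 30.9% were lower. The medians of these members were -0.63, -0.32 and -0.67. Aldolase splits the hexose, and its isozyme ALDOC is best known from brain (chromosome 17, 28573115 to 28577264). In OCIAML5 it fell from 26.1 and 28.9 to 3.17 and 4.99 CPM after PSPC1 knockdown (-2.75 ± 0.19, adjusted p = 1.3e-17), the steepest fall of any member there. The controls of the PU.1 experiment, however, held only 4.89 and 3.79 CPM, and the same PSPC1 knockdown libraries set against them gave -0.10 (adjusted p = 0.67). PU.1 knockdown took ALDOC to 1.81 and 1.66 CPM (-1.34 ± 0.24, adjusted p = 1.1e-06). In MOLM13 it went from 2.66 and 3.27 to 1.82 and 1.57 CPM (-0.81, adjusted p = 0.015), a call lost without control replicate 2 (-0.67, adjusted p = 0.087), without knockdown replicate 2 (-0.71, adjusted p = 0.098) or with the MOLM13 libraries fitted alone (adjusted p = 0.056). ALDOA, the main aldolase of most tissues, was listed at 9.20 to 16.3 CPM, with group means of 2.63 to 4.13 CPM per kb of exon, where the group means of GAPDH were 439 to 766 CPM per kb. It shares its position and strand with another annotated gene, AC093512.2, and whether reads were lost to that overlap was not tested. ALDOA passed only after PU.1 knockdown (-0.67 ± 0.11, adjusted p = 1.9e-07), from 16.3 and 16.1 to 10.5 and 10.1 CPM. After PSPC1 knockdown in OCIAML5 it was at -0.32 (adjusted p = 0.079), and at -0.56 without knockdown replicate 2. Against the PU.1 experiment's controls it was called lower (-0.58, adjusted p = 0.00013).

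The enzymes of the lower pathway are among the most abundant messages of these cells. ENO1, enolase (chromosome 1, 8861000 to 8879250), fell from 2105 and 2084 to 1043 and 1031 CPM in MOLM13 (-1.03 ± 0.038, adjusted p = 1.4e-28). It fell from 1960 and 2074 to 1106 and 1075 CPM after PSPC1 knockdown in OCIAML5 (-0.87 ± 0.037, adjusted p = 1.4e-25) and from 2313 and 2303 to 1499 and 1494 CPM after PU.1 knockdown (-0.64 ± 0.035, adjusted p = 3e-26). PGK1, the first ATP-forming enzyme (chromosome X, 77910739 to 78129296), fell by about the same factor in every setting: from 572 and 569 to 339 and 326 CPM in MOLM13 (-0.79 ± 0.043), from 678 and 730 to 431 and 429 CPM in OCIAML5 (-0.69 ± 0.042) and from 713 and 701 to 430.2 and 455 CPM after PU.1 knockdown (-0.69 ± 0.038). PGAM1, phosphoglycerate mutase, fell from 243 and 247 to 169 and 149 CPM (-0.63 ± 0.053), from 232 and 248 to 188 and 201 CPM (-0.28 ± 0.051) and from 283 and 269.5 to 163 and 164 CPM (-0.77 ± 0.043) in the same order. In each of these comparisons both knockdown libraries lay below both controls.

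Other steps of the lower pathway were not lowered everywhere. GAPDH fell in MOLM13 from 1870 and 1824 to 1312 and 1306 CPM (-0.51 ± 0.038, adjusted p = 1.5e-16), while in OCIAML5 it was at 1755 and 1897 CPM before and 1719 and 1770 CPM after PSPC1 knockdown (-0.04, adjusted p = 0.33), and at 2309 and 2231 before and 2237 and 2330 CPM after PU.1 knockdown (-0.01, adjusted p = 0.89). TPI1, triose phosphate isomerase, fell in MOLM13 (434 and 420.2 to 317 and 327 CPM; -0.42, adjusted p = 4.6e-12) and after PU.1 knockdown (552 and 537 to 331 and 336 CPM; -0.72, adjusted p = 3e-26), and was at 507 and 549 against 516 and 517 CPM after PSPC1 knockdown in OCIAML5 (-0.01, adjusted p = 0.84). PKM, pyruvate kinase, rose in MOLM13 from 811 and 805 to 978 and 985 CPM (0.27 ± 0.038, adjusted p = 2.4e-08), was at 1098 and 1125 against 1167 and 1153 CPM in OCIAML5 (0.08, adjusted p = 0.052), and fell after PU.1 knockdown from 1134 and 1096 to 841 and 831 CPM (-0.43 ± 0.036, adjusted p = 5.9e-17). PKM was the only member of this stretch of the pathway that rose in any knockdown, and the counts do not separate its splice forms. ENO2, the neuronal enolase, fell from 10.6 and 12.8 to 4.41 and 4.49 CPM after PSPC1 knockdown in OCIAML5 (-1.37 ± 0.25, adjusted p = 7.8e-06) and was at 19.1 and 18.7 against 17.2 and 17.5 CPM after PU.1 knockdown (-0.14, adjusted p = 0.21). In MOLM13 it held only 1.63 and 2.12 CPM before and 1.35 and 0.302 CPM after knockdown (-1.22 ± 0.41, adjusted p = 0.011), and without knockdown replicate 2 the change was -0.48 (adjusted p = 0.38), without control replicate 2 -1.04 (adjusted p = 0.054).

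LDHA, the lactate dehydrogenase subunit that favours lactate formation (chromosome 11, 18394388 to 18408425), fell in all 3 knockdowns. With LDHB and PDK1, which also act on pyruvate, 3 of 3 were lower in MOLM13 and 2 of 3 in each OCIAML5 knockdown. Of all genes, 28.4% to 30.9% were lower. LDHA went from 964 and 968 to 369.1 and 369.2 CPM in MOLM13, 2.64-fold lower (-1.40 ± 0.04, adjusted p = 5.8e-33). In OCIAML5 it went from 876 and 903 to 415 and 411 CPM, 2.12-fold lower (-1.08 ± 0.039, adjusted p = 1.3e-28). After PU.1 knockdown it went from 887 and 925 to 623 and 632 CPM, 1.46-fold lower (-0.54 ± 0.037, adjusted p = 3.9e-21). The 6 control libraries of both lines lay within 876 to 968 CPM, and no knockdown library reached that range. LDHB, the subunit that favours pyruvate, was scarce here and shares its strand and position with AC010197.2. It fell after PU.1 knockdown from 14.4 and 16.3 to 9.80 and 11.4 CPM (-0.54 ± 0.11, adjusted p = 2.2e-05) and was at 13.5 and 15.5 against 13.8 and 14.4 CPM after PSPC1 knockdown in OCIAML5 (-0.02, adjusted p = 0.92). In MOLM13 it went from 18.5 and 17.1 to 14.0 and 12.7 CPM (-0.43, adjusted p = 0.0085), which was not called without control replicate 1 (-0.39, adjusted p = 0.065) or knockdown replicate 2 (-0.37, adjusted p = 0.078).

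PDK1, the kinase that blocks pyruvate dehydrogenase and so keeps pyruvate out of the mitochondria, fell with PSPC1 in both lines. It went from 28.3 and 32.0 to 21.6 and 18.5 CPM in MOLM13 (-0.60 ± 0.11, adjusted p = 7.4e-06) and from 43.5 and 47.5 to 19.8 and 22.4 CPM in OCIAML5 (-1.09 ± 0.10, adjusted p = 6.9e-13). Against the PU.1 experiment's controls, at 25.56 and 25.58 CPM, the OCIAML5 change was -0.27 (adjusted p = 0.0081). After PU.1 knockdown PDK1 was at 29.3 and 28.95 CPM (0.17, adjusted p = 0.053).

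**Figure D2:**
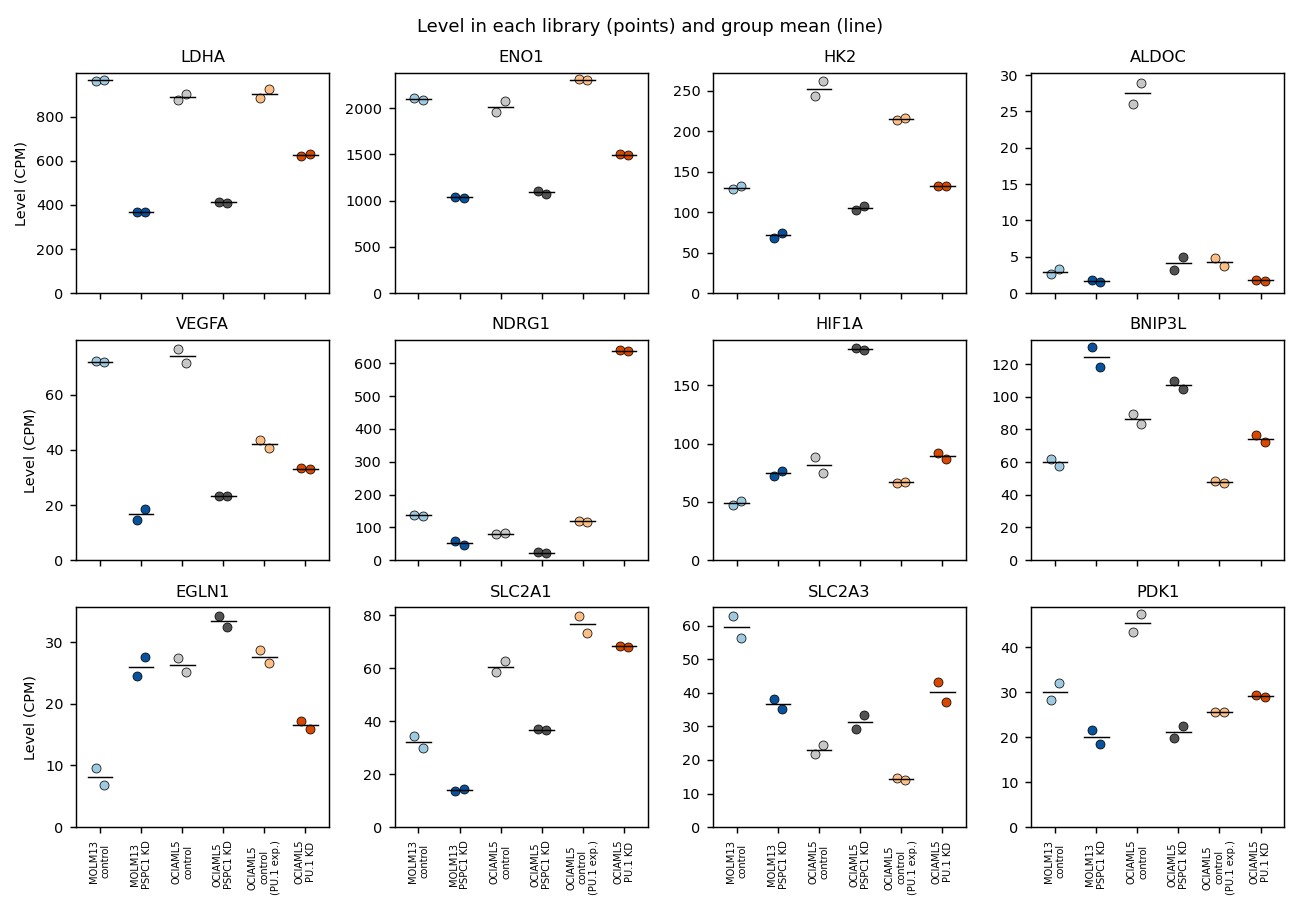
Level in CPM of 12 members in each of the 12 libraries, with a line at each group mean and the vertical axis starting at 0. Pale points are controls and dark points knockdowns; LDHA, ENO1 and HK2 drop in every pair of groups, HIF1A rises in each, NDRG1 reaches 636.5 to 639.6 CPM only after PU.1 knockdown, and the ALDOC controls of the 2 OCIAML5 experiments stand far apart.

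The HIF genes did not share one direction. Of 10 tested, 4 were higher and 2 lower in MOLM13, 3 and 3 after PSPC1 knockdown in OCIAML5, and 5 and 3 after PU.1 knockdown. Of all genes, 27.6% were higher and 29.5% lower in MOLM13, 27.5% and 28.4% in OCIAML5, and 29.6% and 30.9% after PU.1 knockdown. The 3 and 3 in OCIAML5 lie near these shares. The medians were 0.14, 0.00 and 0.26. HIF1A, the oxygen-regulated alpha subunit (chromosome 14, 61695513 to 61748259), rose from 47.1 and 51.1 to 72.0 and 76.8 CPM in MOLM13 (0.59 ± 0.071, adjusted p = 4.5e-10). In OCIAML5 it rose from 88.7 and 74.9 to 182 and 180.0 CPM after PSPC1 knockdown (1.16 ± 0.063, adjusted p = 1.1e-21). PU.1 knockdown took it from 66.0 and 67.1 to 91.5 and 86.6 CPM (0.40 ± 0.055, adjusted p = 1.9e-09), which against the controls of the PSPC1 experiment came to 0.10 (adjusted p = 0.17). In each pair of groups the knockdown libraries were above the controls. Antisense genes HIF1A-AS1 and HIF1A-AS2 overlap the locus, and whether counting used strand is not stated.

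EGLN1 encodes PHD2, the hydroxylase that sets the oxygen set point of HIF (chromosome 1, 231363751 to 231425044). It rose from 9.60 and 6.78 to 24.4 and 27.5 CPM in MOLM13 (1.63 ± 0.13, adjusted p = 4.5e-15). In OCIAML5 it went from 27.5 and 25.2 to 34.3 and 32.5 CPM after PSPC1 knockdown (0.36, adjusted p = 0.0056), a call lost without control replicate 2 (0.29, adjusted p = 0.064) or knockdown replicate 1 (0.32, adjusted p = 0.058). PU.1 knockdown lowered it from 28.7 and 26.6 to 17.3 and 15.9 CPM (-0.76 ± 0.089, adjusted p = 1.9e-11). EGLN1 thus moved up with loss of PSPC1 and down with loss of PU.1. EGLN3, the more inducible PHD3, had no count in the 4 MOLM13 libraries. The OCIAML5 controls of the PSPC1 experiment, at 0.990 and 1.35 CPM, were at least 14.8-fold higher than the limit that 3 counts over the MOLM13 controls allow, and EGLN3 passed in none of the 3 knockdowns.

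Among the members, VEGFA, the angiogenic growth factor (chromosome 6, 43770184 to 43786487), fell most in MOLM13. It went from 72.3 and 71.8 to 14.6 and 18.5 CPM there (-2.13 ± 0.094, adjusted p = 2.4e-25) and from 76.7 and 71.4 to 23.4 and 23.4 CPM after PSPC1 knockdown in OCIAML5 (-1.64 ± 0.086, adjusted p = 3.2e-22). After PU.1 knockdown it went from 43.5 and 40.5 to 33.4 and 33.1 CPM (-0.35 ± 0.071, adjusted p = 1.5e-05). The groups were apart each time, but the 2 sets of OCIAML5 controls also differed, and against the PU.1 experiment's controls the PSPC1 change in OCIAML5 was -0.83 (adjusted p = 1.1e-12). Against the PSPC1 experiment's controls the PU.1 change was -1.18 (adjusted p = 1.8e-18).

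NDRG1, a stress- and differentiation-linked gene strongly induced by hypoxia, was the member that most separated the 2 knockdowns. It fell from 139 and 134.5 to 57.2 and 46.8 CPM in MOLM13 (-1.41 ± 0.073, adjusted p = 1.9e-22) and from 80.6 and 81.3 to 23.3 and 20.2 CPM after PSPC1 knockdown in OCIAML5 (-1.87 ± 0.082, adjusted p = 2.7e-25). It rose from 120.4 and 117.5 to 639.6 and 636.5 CPM after PU.1 knockdown, 5.31-fold (2.41 ± 0.042, adjusted p = 1.9e-54). No other member changed as much after PU.1 knockdown against that experiment's own controls, although PFKFB4 (-2.2) came near. Against the PSPC1 experiment's controls NDRG1 was at 2.96, and ALDOC (-4.01) and PFKFB4 (-3.85) changed more.

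The mitophagy receptors BNIP3 and BNIP3L are paralogs that HIF is known to induce. BNIP3L rose from 62.2 and 57.8 to 130.4 and 119 CPM in MOLM13 (1.04 ± 0.065, adjusted p = 1.9e-19), from 89.4 and 83.2 to 109.9 and 105 CPM after PSPC1 knockdown in OCIAML5 (0.33 ± 0.062, adjusted p = 9e-06) and from 48.2 and 47.1 to 76.3 and 72.6 CPM after PU.1 knockdown (0.63 ± 0.06, adjusted p = 8.4e-15). Against the controls of the other OCIAML5 experiment the PSPC1 change was 1.18 and the PU.1 change -0.23 (adjusted p = 0.00097), so the PU.1 direction rests on the control set. BNIP3 was at 36.9 and 34.0 against 35.8 and 37.4 CPM in MOLM13 (0.03, adjusted p = 0.81) and fell from 54.4 and 52.9 to 44.6 and 41.1 CPM after PSPC1 knockdown in OCIAML5 (-0.30, adjusted p = 0.0016). After PU.1 knockdown it went from 47.6 and 49.3 to 44.5 and 44.1 CPM (-0.14, adjusted p = 0.05), which was not called with DESeq2 (adjusted p = 0.088), nor without control replicate 2 (-0.13, adjusted p = 0.13), knockdown replicate 1 (-0.16, adjusted p = 0.12) or knockdown replicate 2 (-0.15, adjusted p = 0.17). Rows for BNIP3 pseudogenes held up to 10% as many counts as BNIP3 itself.

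The remaining HIF targets moved little. P4HA1, a collagen prolyl hydroxylase, went from 48.8 and 51.4 to 58.3 and 61.9 CPM in MOLM13 (0.25, adjusted p = 0.0052), a call lost without control replicate 1 (0.20, adjusted p = 0.095) or knockdown replicate 2 (0.20, adjusted p = 0.085). After PU.1 knockdown it went from 35.5 and 38.0 to 44.0 and 41.1 CPM (0.19, adjusted p = 0.014), which came to -0.34 against the controls of the PSPC1 experiment (adjusted p = 0.00023). This call was lost with DESeq2 (adjusted p = 0.14), without control replicate 1 (0.12, adjusted p = 0.18) and without knockdown replicate 1 (0.14, adjusted p = 0.23). KDM3A, a histone H3 lysine demethylase, rose only after PU.1 knockdown, from 78.6 and 78.1 to 101.9 and 97.5 CPM (0.33 ± 0.052, adjusted p = 9.2e-08). ANKRD37 stayed between 0.545 and 1.58 CPM and passed in no knockdown.

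Where a step has several isozymes, their mix differed between control and knockdown in most families and settings. Shares were computed from CPM per kb of exon, and are given as group means, as a description. In the hexokinase family HK2 made up 81.0% of the MOLM13 control level and 65.9% after PSPC1 knockdown, 76.3% and 54.1% in OCIAML5, and 65.6% and 59.5% before and after PU.1 knockdown. HK1 supplied nearly all of the rest except in MOLM13 after knockdown, where HK3 reached 3.20%, or 1.73% per kb of coding length. GLUT1 lost share to GLUT3 in each setting: SLC2A1 went from 41.2% to 33.4% in MOLM13, from 77.4% to 60.6% after PSPC1 knockdown in OCIAML5, and from 87.4% to 68.9% after PU.1 knockdown. In the last case SLC2A3 rose by 1.47 on the log2 scale, while in MOLM13 both transporters were lower.

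The liver form of phosphofructokinase gained share after PSPC1 knockdown in both lines. After PU.1 knockdown, where PFKL itself fell (-0.64), it gained share only against its own controls. The PSPC1 experiment's OCIAML5 controls had the same share, 28.8%. PFKL made up 45.4% of the family level in the MOLM13 controls and 57.0% after PSPC1 knockdown, 28.8% and 38.8% in OCIAML5, and 26.3% and 28.8% in the PU.1 experiment, PFKP making up nearly all of the remainder. With coding length PFKL made up 60.6% and 70.95% in MOLM13, so which isozyme leads in the MOLM13 controls depends on the length used, and 39.8% in the PU.1 experiment's controls. PFKFB4 went from 12.5% to 22.4% of its family in MOLM13, where PFKFB3 fell, and from 12.1% to 3.10% in OCIAML5, where PFKFB4 fell more than PFKFB3. After PU.1 knockdown it went from 4.40% to 1.12%. SLC16A1 made up 64.1% of the 2 lactate transporters in MOLM13 controls and 50.1% after knockdown, 77.7% and 78.9% in OCIAML5, and 75.2% and 66.5% in the PU.1 experiment. With coding length the share in MOLM13 controls was 49.5%, and SLC16A1 no longer led there. LDHB went from 3.69% to 7.01% of the lactate dehydrogenase level in MOLM13 and from 3.28% to 6.62% in OCIAML5 with PSPC1 knockdown, and was 3.41% and 3.40% in the PU.1 experiment. With coding in place of exon length the LDHB shares in MOLM13 were 1.95% and 3.77%, so their size but not their direction depends on the length used. ALDOC made up 25.2% of the aldolase level in MOLM13 controls, 72.8% in the OCIAML5 controls of the PSPC1 experiment and 26.3% in those of the PU.1 experiment, with the doubt over ALDOA counts that was given above. ENO1 made up at least 98.6% of the enolase level in every group.

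**Figure D3:**
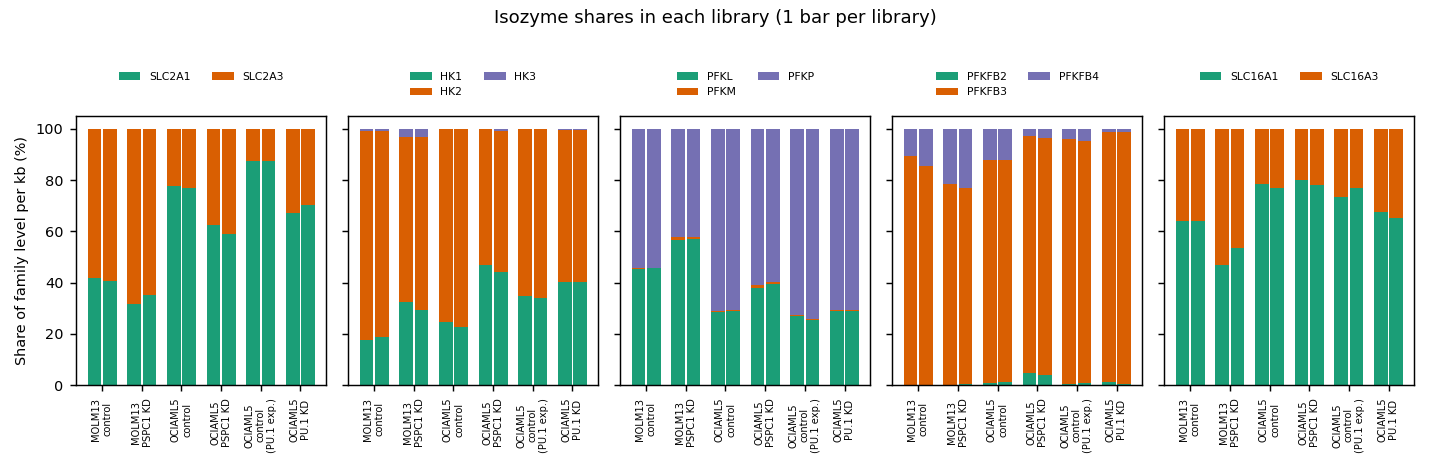
Share of each isozyme in its family's summed level per kb of exon, in percent, with 1 stacked bar for each of the 12 libraries. SLC2A1 gives way to SLC2A3 and HK2 to HK1 in all 3 knockdowns, and the 2 libraries of a group have similar shares.

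Other genes of these pathways were counted in the same way, beside the shares of all genes given above (29.5% lower and 27.6% higher in MOLM13, 28.4% and 27.5% in OCIAML5, 30.9% and 29.6% after PU.1 knockdown). Of 108 genes in 6 further lists, 84 were tested after PSPC1 knockdown, and 38 were lower and 19 higher in MOLM13, 35 and 22 in OCIAML5. After PU.1 knockdown 86 were tested, with 30 lower and 27 higher. Their medians were -0.29, -0.15 and 0.04. Of 12 genes for pyruvate entry into mitochondria, 7 were lower and 3 higher in MOLM13, 5 and 4 after PSPC1 knockdown in OCIAML5, and 4 and 1 after PU.1 knockdown. Of 8 pentose phosphate genes, 4, 4 and 1 were lower in the same order and 3, 1 and 2 higher. Further HIF targets numbered 25 tested after PSPC1 knockdown, with 14 lower and 6 higher in MOLM13 (median -0.68) and 11 and 6 in OCIAML5 (-0.16). After PU.1 knockdown 27 were tested, with 6 lower and 13 higher (0.23).

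Single genes of these lists moved further than most members. TIGAR, a p53 target that degrades fructose 2,6-bisphosphate, rose from 15 and 16.2 to 40.9 and 39.1 CPM in MOLM13 (1.35 ± 0.10, adjusted p = 3.6e-16) and from 12.3 and 13.7 to 58.9 and 63.7 CPM after PSPC1 knockdown in OCIAML5 (2.26 ± 0.10, adjusted p = 1.1e-24). STC2, a secreted stress protein induced by hypoxia, fell from 87.2 and 94.4 to 8.87 and 8.93 CPM in OCIAML5 (-3.33 ± 0.10, adjusted p = 3.2e-31), although the PU.1 experiment's controls held 25.4 and 25.0 CPM. DDIT4, an mTOR inhibitor induced by hypoxia, fell after PSPC1 knockdown in OCIAML5 from 22.9 and 25.6 to 4.33 and 3.77 CPM (-2.55 ± 0.17) and rose after PU.1 knockdown from 3.52 and 4.38 to 11.04 and 9.34 CPM (1.34 ± 0.16). In OCIAML5 the PSPC1 knockdown libraries lay at the level of the PU.1 experiment's controls, and the PU.1 knockdown libraries below the PSPC1 experiment's controls. Both directions in OCIAML5 thus rest on the control set. In MOLM13, which has controls of its own, DDIT4 fell from 11.79 and 11.45 to 3.23 and 2.66 CPM after PSPC1 knockdown (-2 ± 0.2, adjusted p = 3e-12). CXCR4, the chemokine receptor that holds leukemia cells in marrow, rose after PU.1 knockdown from 0.826 and 0.691 to 12.5 and 13.7 CPM (4.10 ± 0.20, adjusted p = 8.2e-29). SLC2A5, the fructose transporter, fell there from 16.2 and 16.8 to 2.87 and 3.35 CPM (-2.41 ± 0.14), and GBE1, the glycogen branching enzyme, rose from 46.4 and 46.6 to 107.6 and 114.9 CPM (1.24 ± 0.056).

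The effect of PSPC1 knockdown was then compared between the lines by an interaction term. It differed for 22 of 36 members, higher in OCIAML5 for 11 and lower for 11, where 18% and 12.5% of all genes tested differed in those directions (30.5% together). SLC2A3 fell in MOLM13 and rose in OCIAML5, and for SLC16A1, PGAM1 and LDHA the fall was smaller in OCIAML5, while GAPDH and TPI1 fell in MOLM13 and did not pass in OCIAML5. The difference was 1.18 for SLC2A3 (adjusted p = 6.8e-10), 0.68 for SLC16A1 (3.3e-09), 0.47 for GAPDH (8.1e-10), 0.41 for TPI1 (2.6e-07), 0.35 for PGAM1 (0.00013) and 0.32 for LDHA (9.9e-06). PFKFB4 (-2.73, adjusted p = 1.7e-08), ALDOC (-1.95, 2.7e-05) and HK2 (-0.36, 0.00024) were lowered more in OCIAML5, with the ALDOC and PFKFB4 values resting on the high controls of that experiment. SLC16A3 (-0.25) and PKM (-0.18) also differed downwards, so the 4 transporters split 3 to 1, and the 9 members from aldolase to pyruvate kinase held 4 higher, 2 lower and 3 not called. The SLC16A3 call was marginal (adjusted p = 0.046). It was lost with DESeq2 (-0.27, adjusted p = 0.25), library size alone (-0.21, adjusted p = 0.085) and no low-count filter (-0.23, adjusted p = 0.06). HIF1A rose more in OCIAML5 by 0.57 (adjusted p = 3.5e-06), and EGLN1 and BNIP3L rose more in MOLM13 (-1.27, adjusted p = 8.7e-08, and -0.70, adjusted p = 1.2e-08). The BNIP3L value rests on the controls: against those of the PU.1 experiment its OCIAML5 rise was 1.18, larger than in MOLM13. HIF1A (1.45) and EGLN1 (0.28) kept their order, while GAPDH (-0.37) and PGAM1 (-0.50) came nearer to their falls in MOLM13. The difference of SLC2A1 was 0.52, and 0.41 without MOLM13 control replicate 1 (adjusted p = 0.05). Those of VEGFA (0.49) and NDRG1 (-0.46) were not called without MOLM13 knockdown replicate 1 (0.34, adjusted p = 0.074, and -0.30, adjusted p = 0.051).

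PU.1 and PSPC1 knockdown in OCIAML5 were compared as a difference of effects, each against its own controls, in 1 fit over both tables. Of 36 members, 16 were higher and 8 lower with PU.1 than with PSPC1 knockdown, against 22.8% and 22.9% of 17159 genes (45.6% in all), and the median was 0.24, or 0.37 without OCIAML5 control replicate 2 of the PSPC1 experiment. Among members higher with PU.1 knockdown, NDRG1 differed most (4.29), followed by ALDOC (1.44), VEGFA (1.30), PDK1 (1.28), ENO2 (1.24) and SLC2A3 (1.04). For ALDOC, VEGFA and PDK1 the control sets themselves differed, by -2.67, -0.82 and -0.83 on the log2 scale. They differed by less for NDRG1, ENO2 and SLC2A3, as given below with the other control differences. With the control sets exchanged SLC2A3 nevertheless came to 1.12 for PSPC1 and 0.78 for PU.1 knockdown, the reverse order. ENO2 (-2.08 and 0.56) and NDRG1 (-2.43 and 2.96) kept theirs. ALDOC was at a mean of 1.73 CPM after PU.1 and 4.08 CPM after PSPC1 knockdown, the reverse of its place in this list. All 4 transporters were higher with PU.1 knockdown, but SLC16A1 was not called with no low-count filter (0.21, adjusted p = 0.12), and nor was BNIP3L (0.28, adjusted p = 0.05). BNIP3L was at a mean of 74.4 CPM after PU.1 and 107.2 CPM after PSPC1 knockdown, the reverse of that direction. The 8 lower members were EGLN1 (-1.10), HIF1A (-0.74), TPI1 (-0.69), PFKL (-0.63), HK1 (-0.52), LDHB (-0.51), PKM (-0.50) and PGAM1 (-0.47). HK1 was at a mean of 93.0 CPM after PU.1 and 91.9 CPM after PSPC1 knockdown, so its place here rests on the control sets. LDHB was not called with DESeq2 (adjusted p = 0.078), nor without OCIAML5 control replicate 1 of the PSPC1 experiment (-0.39, adjusted p = 0.11), PU.1-experiment control replicate 2 (-0.41, adjusted p = 0.11) or PU.1 knockdown replicate 1 (-0.39, adjusted p = 0.13). GPI, SLC16A3 and NDRG1 were the 3 members that fell after both PSPC1 knockdowns and rose after PU.1 knockdown. The share of all genes with that pattern was not computed.

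Before any knockdown, control cells of the lines differed in these genes about as often as in all genes, with more members higher in OCIAML5. OCIAML5 was higher than MOLM13 in 16 of 36 members and lower in 6, against 30.7% and 30% of all genes (60.6% together). ALDOC (3.23), ENO2 (2.65), EGLN1 (1.67), HK1 (1.42), PFKP (0.97), HK2 (0.96), SLC2A1 (0.91) and HIF1A (0.75) were higher on the log2 scale, while SLC2A3 (-1.37), SLC16A3 (-1.14) and NDRG1 (-0.75) were lower. These values hold for the OCIAML5 controls of the PSPC1 experiment: those of the PU.1 experiment held 4.89 and 3.79 CPM of ALDOC, near the 2.66 and 3.27 CPM of MOLM13. MOLM13 thus held more GLUT3 and MCT4 message and OCIAML5 more GLUT1, HK1 and HK2 message. The median over the members was 0.16, or 0.30 without MOLM13 control replicate 1 and 0.24 without OCIAML5 control replicate 2. SLC16A1 (-0.18) was not called without MOLM13 control replicate 1 (-0.13, adjusted p = 0.12), nor LDHA (-0.11) without MOLM13 control replicate 2 (adjusted p = 0.051). HK3 (-1.99) was not called without either MOLM13 control (adjusted p = 0.11 and 0.098) or without OCIAML5 control replicate 2 (-1.43, adjusted p = 0.24).

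The OCIAML5 control libraries of the 2 experiments differed as well, in 10 members higher and 9 lower in the PU.1 experiment, against 20% and 18.9% of all genes (38.9% together). ALDOC (-2.67), PFKFB4 (-1.64), BNIP3L (-0.86), PDK1 (-0.83), VEGFA (-0.82), SLC2A3 (-0.69), P4HA1 (-0.53) and HIF1A (-0.30) were lower there, and ENO2 (0.70), NDRG1 (0.55), HK1 (0.52), SLC16A3 (0.43), SLC2A1 (0.33) and GAPDH (0.31) higher. GPI (0.10) was not called without PSPC1-experiment control replicate 1 (adjusted p = 0.083) or 2 (adjusted p = 0.067) or PU.1-experiment control replicate 1 (0.07, adjusted p = 0.31). With the controls exchanged, 20 members were lower and 7 higher after PSPC1 knockdown, against 32.8% and 31.4% of all genes. After PU.1 knockdown 21 were lower and 9 higher, against 29.2% and 26.9%. LDHA and PGK1 changed little by this exchange. LDHA went from -1.08 to -1.12 and PGK1 from -0.69 to -0.71 for PSPC1 knockdown, and from -0.54 to -0.52 and from -0.69 to -0.69 for PU.1 knockdown. ENO1 went from -0.87 to -1.07 and from -0.64 to -0.45. GAPDH, not called against its own controls, went from -0.04 to -0.37 for PSPC1 knockdown (adjusted p = 3.4e-11) and from -0.01 to 0.30 for PU.1 knockdown (adjusted p = 8.9e-09). SLC16A3 went from -0.57 to -1.01 and, for PU.1 knockdown, from 0.38 to 0.81. For PSPC1 knockdown ENO2 went from -1.37 to -2.08, SLC16A1 from -0.46 to -0.71, PGAM1 from -0.28 to -0.50 and PFKM from 1.07 to 1.77, each in its own direction.

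**Figure D4:**
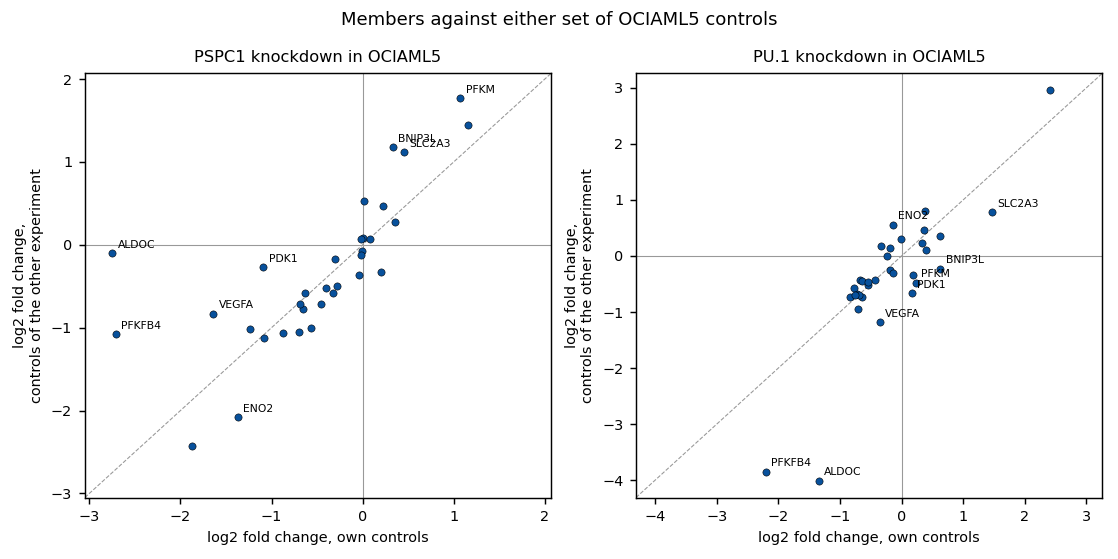
Log2 fold change of 33 members against their own controls (horizontal axis) and against the OCIAML5 controls of the other experiment (vertical axis), for PSPC1 and PU.1 knockdown, with a dashed line at equality. LDHA and PGK1 sit on the line in both panels, whereas ALDOC moves from -2.75 to -0.10 in the PSPC1 panel and from -1.34 to -4.01 in the PU.1 panel.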

How the data were processed

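Poly(A) RNA of 12 libraries was sequenced with a stranded mRNA kit, per the labels' protocols. HTSeq 2.0.2, STAR 2.7.10a, DESeq2 1.36.0, Trim Galore 0.6.7 and the build GRCh38 are named, without roles, in the submitters' processing notes. The authors deposited raw counts per gene in 2 tables, 1 per experiment, and neither the counting mode nor its strand setting is stated. Of the 37 members, 29 overlap another annotated gene, 18 of them on the same strand, and whether shared reads were dropped was not tested.

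From these counts, genes were kept with filterByExpr, scaled by TMM and tested with edgeR 4.0.16 (quasi-likelihood, R 4.3.3), with Benjamini-Hochberg adjustment over all genes and a threshold of 0.05. The 8 PSPC1 libraries shared 1 fit, as did the 4 PU.1 libraries, and comparisons between experiments used the 8 OCIAML5 libraries joined. Levels are CPM scaled by TMM over all 12 libraries. Exon lengths and positions came from GENCODE v29 on GRCh38. DESeq2 1.42.0, other scalings and filters, left-out libraries and exchanged controls were the alternatives. The procedure was tested on simulated data.

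All members are named or counted. Pathway genes are named for the 3 largest rises and falls per knockdown among those passing, whose higher group averages 5 CPM or more and whose libraries do not overlap, and not all of those are described. The members and lists were chosen with earlier results of these data known. Replicate variance was 2.62 to 5.36 times counting variance, averaged over the genes of a group with enough counts. It was not measured for the members alone.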

Additional observations from a re-analysis of the deposited data

Results flagged for a closer look

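For 22 members the change after PSPC1 knockdown differed between the lines by edgeR's interaction test (OCIAML5 minus MOLM13, log2). It was above 0 for SLC2A3 (1.18), SLC16A1 (0.68), HIF1A (0.57), SLC2A1 (0.52), VEGFA (0.49), GAPDH (0.47), TPI1 (0.41), PFKFB3 (0.40), PGAM1 (0.35), LDHA (0.32) and ENO1 (0.16). It was below 0 for PFKFB4 (-2.73), ALDOC (-1.95), EGLN1 (-1.27), BNIP3L (-0.70), PDK1 (-0.49), NDRG1 (-0.46), HK2 (-0.36), BNIP3 (-0.33), SLC16A3 (-0.25), GPI (-0.24) and PKM (-0.18). Against the PU.1 experiment's controls the OCIAML5 values of ALDOC (-0.10), BNIP3L (1.18) and PDK1 (-0.27) lay above those of MOLM13. That of ENO1 (-1.07) lay slightly below, and the others kept their direction. The difference between the lines was not tested with those controls.

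Calls for 8 of the 22 rest on single libraries, among them those of SLC2A1, VEGFA and NDRG1. SLC16A3 was not called without MOLM13 control replicate 2 (-0.19), MOLM13 knockdown replicate 1 (-0.16), OCIAML5 control replicate 2 (-0.14) or OCIAML5 knockdown replicate 1 (-0.13). PFKFB3 was not called without MOLM13 control replicate 1 (0.24), MOLM13 knockdown replicate 1 (0.34) or OCIAML5 knockdown replicate 1 (0.34). PDK1 was not called without the same 3 libraries (-0.39, -0.37 and -0.39). ENO1 was not called without MOLM13 knockdown replicate 2 (0.15) or OCIAML5 knockdown replicate 1 (0.14). BNIP3 was not called without MOLM13 control replicate 2 (-0.27), MOLM13 knockdown replicate 2 (-0.30), OCIAML5 control replicate 1 (-0.30) or OCIAML5 knockdown replicate 2 (-0.27).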

How the results depend on the processing

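Counts of members called were within 1.5 times their value under every alternative but 2: members higher after PSPC1 knockdown in OCIAML5 numbered 3 to 6 with 1 library left out (6 with all), and members lower in OCIAML5 than in MOLM13 controls numbered 3 with library size alone (6 with TMM). Replicate numbers did not pair the libraries (deviations of same-numbered libraries correlated from -0.10 to 0.10). With the replicate number as a block, 6 members were higher and 20 lower in MOLM13, 6 and 18 after PSPC1 knockdown in OCIAML5, and 8 and 19 after PU.1 knockdown. The block ended the call of BNIP3 after PU.1 knockdown (-0.14, adjusted p = 0.077), of HK3 between the lines' controls and of GPI between the control sets.

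Signs turned mainly where values were near 0. With 1 library left out, values in MOLM13 ran from -0.13 to 0.14 for PFKFB4, from -0.07 to 0.05 for KDM3A (-0.01 with no filter), from -0.03 to 0.08 for BNIP3 and from -0.14 to 1.38 for ANKRD37. After PSPC1 knockdown in OCIAML5 they ran from -0.75 to 2.34 for HK3, from -0.07 to 0.04 for TPI1, from -0.12 to 0.07 for LDHB and from -0.10 to 0.11 for P4HA1. After PU.1 knockdown they ran from -0.53 to 0.23 for PFKFB2 and from -0.05 to 0.01 for GAPDH (0.02 with a filter of 1 CPM). Library size alone turned TPI1 (0.07), GAPDH (0.04), LDHB (0.06) and KDM3A (0.06) after PSPC1 knockdown in OCIAML5, and PFKFB2 (0.04), GAPDH (0.15), ENO2 (0.02) and BNIP3 (0.01) after PU.1 knockdown.

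Exchanged controls turned HK1 (-0.33) and KDM3A (0.07) for PSPC1 knockdown. For PU.1 knockdown they turned SLC2A1 (0.15), HK1 (0.17), PFKM (-0.48), GAPDH (0.30), ENO2 (0.56), PDK1 (-0.66), P4HA1 (-0.34) and BNIP3L (-0.23). The cause was not tested.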

Other observations

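EGLN3, the inducible HIF prolyl hydroxylase, was at 0.990 and 1.35 CPM in the OCIAML5 controls of the PSPC1 experiment, 0.550 and 0.563 CPM in those of the PU.1 experiment, and 0.142 and 0.490 CPM after PU.1 knockdown. After PSPC1 knockdown in OCIAML5 it was at 0.250 and 0.499 CPM (edgeR, -1.63, adjusted p = 0.05, not called). It was called with that line fitted alone (-1.65, adjusted p = 0.022) and not against the PU.1 experiment's controls (-0.60, adjusted p = 0.44). Against the PSPC1 experiment's controls the PU.1 change was -1.83 (edgeR, adjusted p = 0.011), while against its own controls it was -0.77 (adjusted p = 0.25).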
